A study of Mus musculus with 11 samples.

Results

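Solute carriers are membrane proteins that move small molecules and ions across the plasma membrane and the membranes of organelles, either down a gradient or coupled to the movement of another ion. Their gene symbols start with Slc and a family number, which largely follows substrate class. In the developing brain they clear neurotransmitters, load vesicles, set the intracellular chloride and pH of neurons and glia, and supply sugars, amino acids, lactate and fatty acids. The members described here were the probes whose platform symbol begins with Slc and a digit. Slc32a1, Slc1a3 and Slc7a3 were left out by rule. This gave 114 of 6856 probes, for 110 of 6041 genes with a single symbol, in 38 families. The symbol rule also takes in 3 adaptor proteins that are named after a carrier but transport nothing themselves (Slc4a1ap, Slc9a3r1 and Slc9a3r2).

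The data are from neocortex of mouse embryos of the C57BL/6 background at embryonic day 18. Each of 11 two-colour arrays set total RNA of 1 embryo of a synaptically silent null mutant line against wild-type RNA, read from the design text as 1 common pool. Dyes were swapped: arrays 1, 2, 6, 7, 8 and 10 had the null sample in Cy3, and the other 5, arrays 3, 4, 5, 9 and 11, had it in Cy5. For arrays 1 and 6 one label places the wild-type RNA at day 14 and another at day 18, and the calls and group counts that change without them are given below. Since the wild-type RNA enters as a single reference, its own spread between embryos is not part of the errors given here, and nothing in the labels says whether embryos shared a litter.

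Values are log ratios, null over wild type, treated as log2. A negative value means less transcript in the null neocortex. Neither the base nor the direction of the deposited ratios is stated, and null over wild type was assumed. Xist, an RNA made from the inactive X chromosome in females, lay between -7.37 and -4.18 on 6 of 10 arrays. On the other 4 it lay between 0.0024 and 0.67. Without the sex of the embryos in the wild-type RNA, these values cannot settle the direction. Each array had between 4822 and 6316 values. The lowest Spearman correlation between any pair of arrays over the genes tested, without Xist, was -0.082. The median over pairs was 0.33 and the highest 0.69. Only ratios were available, so neither the level of a transcript nor the labelled tissue could be checked against absolute signal. In bulk tissue, fewer cells of a type and less RNA per cell cannot be told apart.

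Of the 110 solute carrier genes, 77 in 30 families were measured on 8 or more arrays, with 3 or more in either dye orientation, and were tested. With limma, 12 rose and 14 fell at an adjusted p of 0.05, and 51 did not pass. Over all 4811 genes tested, 28.9% were called, 14.5% higher and 14.4% lower. The corresponding shares of the tested solute carriers were 33.8%, 15.6% and 18.2%, close to that background. Their median log2 ratio was -0.018, beside -0.0052 for all genes tested; it was -0.034 without array 9, -0.030 without array 10 and -0.012 without array 3. The changes were small: 1 of the 26 called carriers changed by at least 1.5-fold, and the other 25 by at most 1.32-fold. Of the 14 that fell, 6 were below 0 on every array that measured them, and of the 12 that rose, 4 were above 0 on every such array. In the plot against all genes the carriers lie within the cloud.

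**Figure D1:**
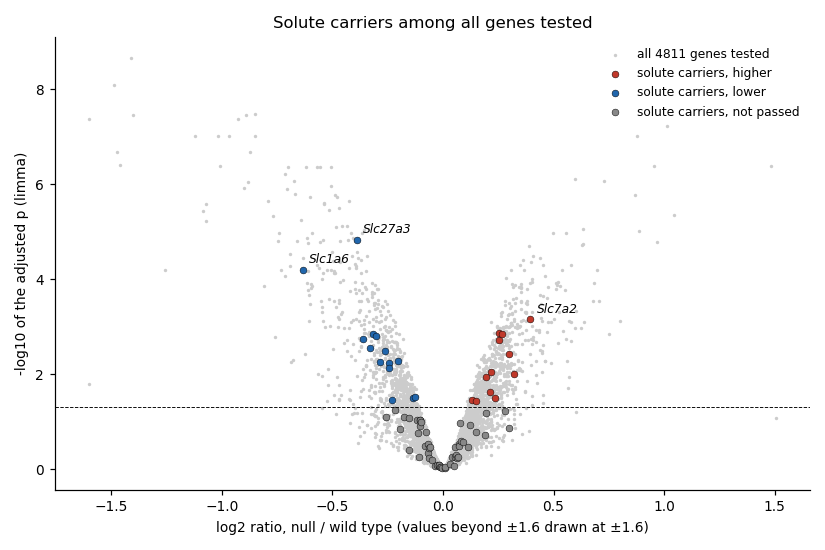
Each point is a gene, with its log2 ratio of null over wild type on the horizontal axis and -log10 of its limma adjusted p on the vertical axis; the dashed line marks 0.05. Small points are the 4811 genes tested, with ratios beyond 1.6 in either direction drawn at 1.6, and large points the 77 solute carriers, of which 12 rose (red), 14 fell (blue) and 51 did not pass (dark grey).

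Markers of other cell types moved in the same samples. Of 10 tested markers of microglia and macrophages 7 rose and 2 fell, with array medians between 0.45 and 0.80. Of 7 astrocyte markers 4 rose and 0 fell (array medians 0.082 to 0.58), and of 7 markers of meninges and choroid plexus 4 rose and 1 fell (-0.0085 to 0.37). Endothelium and pericytes had 3 higher and 1 lower of 10, erythroid cells 0 and 1 of 5, GABA neurons 0 and 2 of 8, the oligodendrocyte lineage 1 and 2 of 6, and glutamatergic cortical neurons 4 and 0 of 6. The part of these cell types in the carrier results below was not tested.

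Carriers of neurotransmitters and related amino acids, families 1, 6, 17 and 18, fell or did not pass. Of 11 tested members 4 fell (36.4%) and 0 rose, beside 14.4% lower and 14.5% higher over all genes tested. In this group 9 had a negative ratio, and the median was -0.15, beside -0.0052 for all genes tested. The group's median was below 0 on each of the 11 arrays, between -0.18 and -0.028. The median of the ratios was -0.096 without array 4 and -0.098 without array 10, and without arrays 3, 4 and 10 together 4 fell, Slc6a12 in place of Slc6a9, and 1 rose, the taurine transporter Slc6a6. The number that fell was 3 without array 2, 6, 7 or 11, 5 without array 4 or 10, and 6 with array weights. The 4 that fell in the main fit were Slc1a6, Slc6a2, Slc6a9 and Slc1a4.

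Slc1a6, the glutamate transporter EAAT4, best known from cerebellar Purkinje cells, had the lowest ratio of all tested carriers. Its values were -0.78, -0.39, -0.63, -0.99, -0.60 and -0.44 on Cy3 arrays 1, 2, 6, 7, 8 and 10, and -0.42, -0.78 and -0.67 on Cy5 arrays 3, 5 and 9. Arrays 4 and 11 gave no value. Every measured null embryo was therefore below the wild-type reference, and the means of both dye orientations were alike at -0.64 and -0.63. Slc1a6 fell by 0.63 ± 0.07 (SE, n = 9, adjusted p = 6.3e-05), or 1.55-fold. Its promoter is shown because it belongs to the carrier with the largest change. The window is the 250 bases before the RefSeq start, on GRCm38.p6, chr10:78780246-78780495, plus strand, with capitals for matches on either strand to 4 motifs, namely GGGCGG (the GC box), TATAA (the TATA box), CCAAT (the CCAAT box) and CACGTG (an E box).
Slc1a6: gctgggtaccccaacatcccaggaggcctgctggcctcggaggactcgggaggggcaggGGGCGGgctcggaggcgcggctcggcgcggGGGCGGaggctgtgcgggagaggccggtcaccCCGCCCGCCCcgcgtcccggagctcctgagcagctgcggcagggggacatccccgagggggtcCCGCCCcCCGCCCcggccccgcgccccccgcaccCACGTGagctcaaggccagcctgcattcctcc
It holds 6 GC boxes, of which 2 overlap each other, and 1 E box 32 to 27 bases before the start. Of all 32851 windows of this length in the RefSeq table, 32.7% hold a GC box, 22.8% a TATAA, 33.8% a CCAAT and 6.02% a CACGTG. A match describes letters only.

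The other 3 fell by smaller amounts. Slc6a2, which takes noradrenaline back up into axons, ranged from -0.56 to 0.0090 with a median of -0.24, was below 0 on 10 of 11 arrays and fell by 0.24 ± 0.06 (n = 11, adjusted p = 0.0075). Slc1a4, a carrier of serine, alanine and other neutral amino acids, was below 0 on all 11 arrays, from -0.54 to -0.029 with a median of -0.16. It fell by 0.20 ± 0.05 (adjusted p = 0.0053). Slc6a9, the glycine transporter GlyT1, ranged from -0.47 to 0.15 with a median of -0.30, and only array 1 was above 0. It fell by 0.23 ± 0.07 (n = 9, adjusted p = 0.034), a call lost when array 2, 3, 6, 7 or 11 was left out (adjusted p between 0.067 and 0.136).

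The remaining 7 members of the group had ratios between -0.18 and 0.12. Slc6a12, a carrier of betaine and GABA, had a ratio of -0.18 ± 0.07 (adjusted p = 0.080), and it passed without array 3, 4 or 10 (adjusted p between 0.035 and 0.047). Slc6a6 was above 0 on 8 of 11 arrays, yet its mean was -0.15 ± 0.13 (adjusted p = 0.388), since its lowest value was -1.51. Slc1a1, the neuronal glutamate transporter EAAC1, and Slc1a5, a glutamine carrier, had ratios of -0.02 and -0.07. Slc18a3, which loads acetylcholine into vesicles, ranged from -0.84 to 1.12 on 8 arrays.

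**Figure D2:**
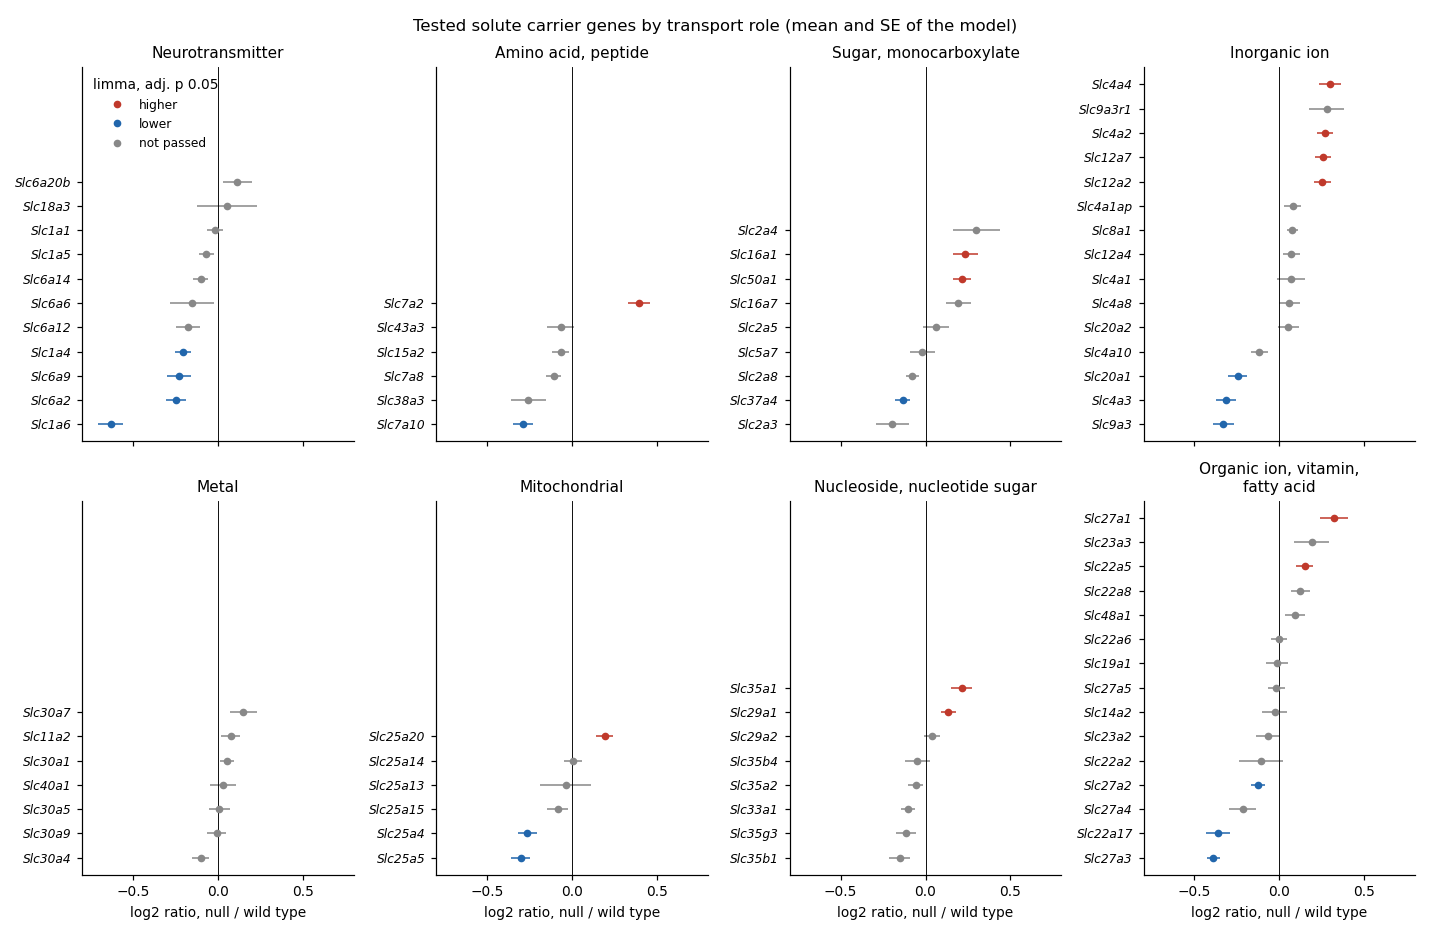
Log2 ratio of null over wild type for the 77 tested solute carriers in 8 groups of transport role; points are the model's means and bars its standard errors. The neurotransmitter panel holds blue (lower) and grey points only, the metal panel grey points only, and the inorganic ion panel has 4 red and 3 blue points at opposite ends.

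Carriers of inorganic ions went both ways. Of 15 tested members, 2 of them adaptors, 4 rose and 3 fell (46.7% called, beside 28.9% of all genes tested). The median was 0.071 and lay above 0 on 9 of 11 arrays. The carriers that rose were Slc4a4, Slc4a2, Slc12a7 and Slc12a2. They move bicarbonate or chloride, but so do Slc4a3, which fell, and Slc4a1, Slc4a8, Slc4a10 and Slc12a4, which did not pass. The carriers that fell were the sodium-proton exchanger Slc9a3, the anion exchanger Slc4a3 and the phosphate carrier Slc20a1.

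Slc12a2 and Slc12a7 belong to the family of cation-chloride cotransporters. Slc12a2, NKCC1, brings chloride into cells together with sodium and potassium, and it helps keep the chloride of immature neurons high. Its ratios lay between -0.05 and 0.44, with a median of 0.30, and only array 9 was below 0. Slc12a2 rose by 0.25 ± 0.05 (n = 11, adjusted p = 0.0019). Slc12a7, KCC4, which lets potassium and chloride out, was above 0 on each of the 11 arrays, from 0.023 to 0.51 with a median of 0.29. It rose by 0.26 ± 0.05 (adjusted p = 0.0014), with means of 0.36 on the Cy3 and 0.15 on the Cy5 arrays. The third tested member, Slc12a4, had a ratio of 0.07 ± 0.05 (adjusted p = 0.289).

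In family 4, the bicarbonate carriers, paralogs moved apart. Slc4a2, the widely expressed anion exchanger AE2, was above 0 on all 10 arrays that measured it, from 0.060 to 0.41, with a median of 0.30. It rose by 0.27 ± 0.05 (n = 10, adjusted p = 0.0014). Slc4a4, a sodium-bicarbonate cotransporter well known in astrocytes, rose by 0.30 ± 0.06 (n = 10, adjusted p = 0.0037), with values from -0.091 on array 7 to 0.84 on array 11.

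Slc4a3, the anion exchanger AE3 of neurons and heart, was below 0 on all 11 arrays, from -0.81 to -0.023 with a median of -0.33. It fell by 0.32 ± 0.06 (n = 11, adjusted p = 0.0015). It was lower on the Cy5 arrays, with a mean of -0.46, than on the Cy3 arrays, with a mean of -0.17. On each of the 10 arrays with both values Slc4a2 lay above Slc4a3, by 0.18 to 0.86, so the values of this pair do not overlap. As the pair was picked for this difference, it is a description and has no test. Of the other bicarbonate carriers, the neuronal Slc4a10 (-0.12, adjusted p = 0.093) and Slc4a8 (0.06) did not pass, nor did the red cell anion exchanger Slc4a1 (0.07). Slc4a10 passed without array 10 (adjusted p = 0.027).

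Slc9a3, the sodium-proton exchanger NHE3, fell by 0.33 ± 0.06 (n = 8, adjusted p = 0.0028), and only array 2 of 8 was above 0, at 0.11. It did not pass by the exact sign-flip permutation test (adjusted p = 0.063) or, with limma, on the Cy3 arrays alone (adjusted p = 0.111). Slc20a1, a sodium-phosphate cotransporter, ranged from -0.76 to 0.10 with a median of -0.20. It was above 0 on array 1 only and fell by 0.24 ± 0.06 (n = 11, adjusted p = 0.0057), while its paralog Slc20a2 had a ratio of 0.05 ± 0.06. The sodium-calcium exchanger Slc8a1, as the mean of 2 probes at 0.095 and 0.058, had a ratio of 0.08 ± 0.03 (adjusted p = 0.107), and it passed by the exact sign-flip permutation test (adjusted p = 0.039). The adaptor Slc9a3r1 had a high but uneven ratio of 0.28 ± 0.10 (adjusted p = 0.059), from -0.40 to 1.46, and passed without array 5 (adjusted p = 0.040). Its mean was -0.19 on the Cy3 and 0.75 on the Cy5 arrays. Slc12a2 is also abundant in choroid plexus and Slc4a4 in glia. In the joint list of meninges and choroid plexus, Ogn, Col1a1, Igf2 and Igfbp2 rose. In that list Folr1 fell (-0.15, limma adjusted p = 0.046), and Ttr did not pass (adjusted p = 0.085). Among glial lists, that of astrocytes had higher calls only, while in the oligodendrocyte lineage Olig1 (-0.37) and Mag (-0.27) fell and Sox10 (0.31) rose. The part of these cells in both ratios was not tested.

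**Figure D3:**
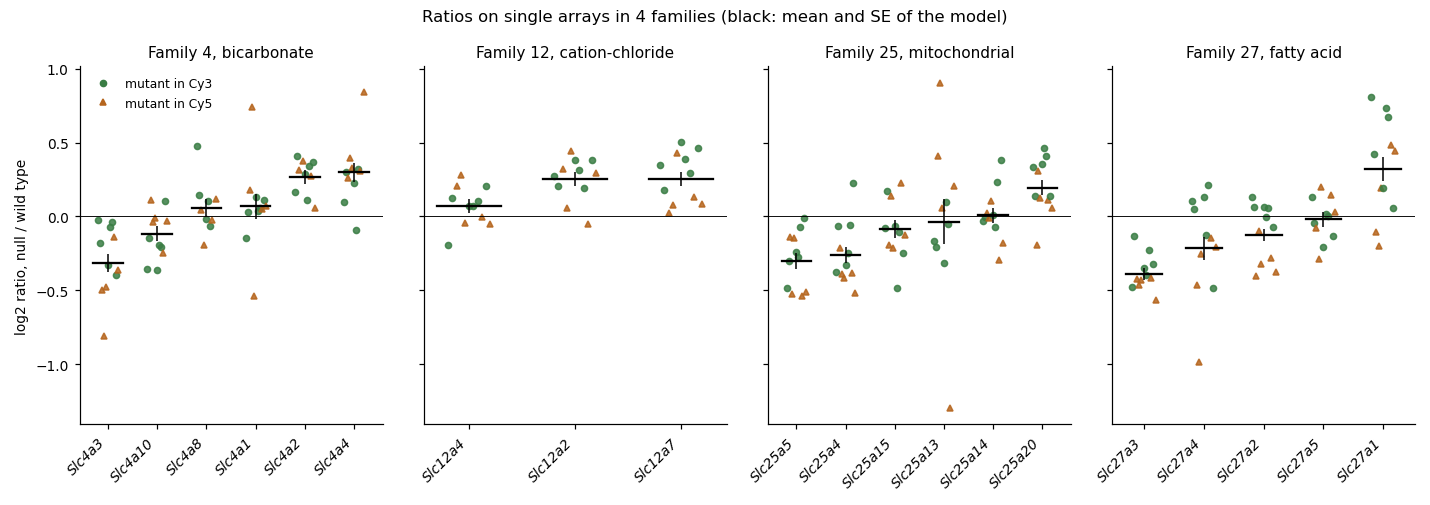
Log2 ratio of null over wild type on each array (circles, mutant in Cy3; triangles, mutant in Cy5) for the tested carriers of families 4, 12, 25 and 27, without the adaptor Slc4a1ap; black bars are the model's means and standard errors. Slc4a3 lies below 0 on all 11 arrays and Slc4a2 above 0 on all 10 that measured it, while Slc12a2 and Slc12a7 both have means above 0.

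Of 6 tested mitochondrial carriers, family 25, 2 fell and 1 rose, with a median of -0.059. The same counts held without array 4, with a median of -0.12, and without arrays 3, 4 and 10, with a median of -0.15. Without arrays 1 and 6, 2 fell and 0 rose. The pair that fell was Slc25a4 and Slc25a5, the adenine nucleotide translocases, which exchange ATP made in the matrix for cytosolic ADP. Slc25a5 was below 0 on all 11 arrays, from -0.54 to -0.013 with a median of -0.28, and fell by 0.30 ± 0.06 (n = 11, adjusted p = 0.0015). Slc25a4 was below 0 on 10 of 11, from -0.52 on array 11 to 0.23 on array 10, with a median of -0.33. It fell by 0.26 ± 0.06 (adjusted p = 0.0033). On array 10, the only one with Slc25a4 above 0, Slc25a5 was also at its highest. The promoters of both are given because these paralogs moved together. They are the 250 bases before the RefSeq start on GRCm38.p6, at chr8:46211063-46211312 on the minus strand for Slc25a4 and chrX:36795347-36795596 on the plus strand for Slc25a5, with the same motifs in capitals.
Slc25a4: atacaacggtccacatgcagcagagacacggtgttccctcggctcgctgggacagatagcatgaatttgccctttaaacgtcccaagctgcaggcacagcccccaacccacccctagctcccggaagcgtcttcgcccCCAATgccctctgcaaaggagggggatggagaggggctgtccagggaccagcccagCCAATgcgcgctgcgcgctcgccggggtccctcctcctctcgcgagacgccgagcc
Slc25a5: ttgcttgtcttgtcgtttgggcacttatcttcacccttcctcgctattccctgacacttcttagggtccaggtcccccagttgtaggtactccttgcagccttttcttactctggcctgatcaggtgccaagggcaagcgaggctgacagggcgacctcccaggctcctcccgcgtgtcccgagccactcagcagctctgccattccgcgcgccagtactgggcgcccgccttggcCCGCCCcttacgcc
The Slc25a4 window holds 2 CCAAT motifs and no GC box, and the Slc25a5 window 1 GC box and no CCAAT, so none of the 4 motifs searched is common to both.

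Slc25a20, which carries acylcarnitines into mitochondria for fatty acid oxidation, moved the other way. It was above 0 on 10 of 11 arrays, from -0.20 on array 3 to 0.46 on array 7, with a median of 0.14. Slc25a20 rose by 0.19 ± 0.05 (n = 11, adjusted p = 0.012). The remaining 3 members, among them the aspartate-glutamate carrier Slc25a13 with values from -1.30 to 0.91, had ratios between -0.08 and 0.01.

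Slc22a5, the plasma membrane transporter that takes up carnitine, also rose, by 0.15 ± 0.05 (n = 11, adjusted p = 0.036). It was above 0 on 10 of 11 arrays, from -0.060 to 0.39 with a median of 0.13. Its call was lost when array 3, 4, 6, 7, 8, 10 or 11 was left out (adjusted p between 0.057 and 0.079), whereas that of Slc25a20 held in all 11 such fits. The limma calls of both were lost without arrays 1 and 6, with an adjusted p of 0.060 for Slc22a5 and 0.055 for Slc25a20, and on the Cy5 arrays alone Slc25a20 had an adjusted p of 0.575. The promoter windows of both carnitine carriers are given side by side, again 250 bases on GRCm38.p6, at chr11:53891704-53891953 on the minus strand for Slc22a5 and chr9:108661886-108662135 on the plus strand for Slc25a20.
Slc22a5: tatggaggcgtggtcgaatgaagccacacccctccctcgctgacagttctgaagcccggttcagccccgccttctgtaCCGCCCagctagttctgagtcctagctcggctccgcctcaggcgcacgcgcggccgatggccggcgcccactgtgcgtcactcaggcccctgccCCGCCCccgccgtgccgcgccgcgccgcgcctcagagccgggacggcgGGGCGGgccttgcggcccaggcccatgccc
Slc25a20: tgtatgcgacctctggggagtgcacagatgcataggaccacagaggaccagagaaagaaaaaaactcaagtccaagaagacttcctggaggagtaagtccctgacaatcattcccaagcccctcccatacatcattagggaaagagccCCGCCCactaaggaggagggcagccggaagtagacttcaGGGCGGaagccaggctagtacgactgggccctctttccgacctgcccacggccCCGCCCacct
Each holds 3 GC boxes and none of the other 3 motifs. Of the 40 windows of the called carriers found in the table, for 23 genes, 65% hold a GC box and 17.5% an E box. The shares of the 87 windows of the 60 tested carriers found there are 51.7% and 14.9%. For TATAA and CCAAT the called carriers have the lower shares, 12.5% and 20%, beside 14.9% and 24.1% of the tested carriers. These shares were not tested.

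The group of organic ion, vitamin, choline and fatty acid carriers had 2 higher and 3 lower of 15 tested, with a median of -0.018. That median was 5.5e-05 without array 10, -0.0087 without array 3, -0.035 without array 8 and -0.036 without array 9. In the fits without array 3, 4, 6, 7, 10 or 11 only 1 rose, and 2 fell without array 3, 5, 6, 7, 8, 10 or 11. Family 27, the fatty acid transport proteins, which also join long-chain fatty acids to coenzyme A, made up 3 of these calls. Slc27a3 was below 0 on all 11 arrays, from -0.56 to -0.13 with a median of -0.42. It fell by 0.39 ± 0.04 (n = 11, adjusted p = 1.5e-05), the smallest adjusted p of any tested carrier.

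Slc27a1, FATP1, rose by 0.32 ± 0.08 (n = 11, adjusted p = 0.010), a call lost by the exact sign-flip permutation test (adjusted p = 0.055) and, with limma, on the Cy5 arrays alone (adjusted p = 0.379). Its values were spread from -0.20 to 0.81 around a median of 0.42, and arrays 3 and 4 were below 0. On each of the 11 arrays Slc27a1 lay above Slc27a3, by 0.26 to 1.28, and on 10 of 11 it lay above Slc27a2. These pairs were picked for their calls in opposite directions, so the differences are descriptions and have no test. Slc27a2 fell by 0.13 ± 0.04 (adjusted p = 0.030), but its sign went with the dye: its mean was 0.041 on the Cy3 and -0.30 on the Cy5 arrays. The call of Slc27a2 was lost when array 3, 5, 6, 7, 8, 10 or 11 was left out (adjusted p between 0.051 and 0.072). Slc27a4 had a ratio of -0.22 ± 0.08 (adjusted p = 0.056), with a lowest value of -0.99, and passed without array 9 (adjusted p = 0.041). The liver enzyme Slc27a5 had one of -0.02.

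Slc22a17, a receptor for the iron-binding protein lipocalin-2, fell by 0.36 ± 0.07 (n = 11, adjusted p = 0.0018). It was below 0 on 10 of 11 arrays, with a lowest value of -1.10 on array 4, a median of -0.37 and 0.014 on array 1. As for Slc4a3, the mean was lower on the Cy5 arrays (-0.55) than on the Cy3 arrays (-0.18), and on the Cy3 arrays alone neither passed. The organic anion carriers Slc22a6 and Slc22a8 had ratios of -0.0033 and 0.12, and the vitamin C transporter Slc23a2 one of -0.07. Slc22a8, known from choroid plexus and vessels, passed without array 8 (adjusted p = 0.039).

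Among 6 tested amino acid and peptide carriers 1 rose and 1 fell, with a median of -0.085. Slc7a2, a carrier of arginine and lysine that activated macrophages induce, had the highest ratio of all tested carriers. It was above 0 on all 10 arrays that measured it, from 0.063 on array 2 to 0.81 on array 4, with a median of 0.37. Slc7a2 rose by 0.40 ± 0.06 (n = 10, adjusted p = 0.00071), and its 2 probes gave 0.39 and 0.35. The median of the microglia and macrophage list was above 0 on all 11 arrays, and its part in this ratio was not tested.

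Slc7a10, Asc-1, which carries glycine and D-serine, was below 0 on all 8 arrays that measured it, from -0.58 to -0.11 with a median of -0.28. It fell by 0.29 ± 0.06 (n = 8, adjusted p = 0.0055). Every array with both values had Slc7a2 above Slc7a10, by 0.33 to 1.11 on 8 arrays. This pair, too, was picked for its opposite calls, and the difference has no test. The glutamine transporter Slc38a3 did not pass at -0.26 ± 0.10 (adjusted p = 0.079). Its mean was -0.014 on the Cy3 arrays and -0.50 on the Cy5 arrays. Slc7a8, LAT2, had a ratio of -0.11 ± 0.04 (adjusted p = 0.094) and passed without array 9 (adjusted p = 0.029).

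Of 9 tested members of the sugar and monocarboxylate families, 2 rose and 1 fell, with a median of 0.062, which was -0.020 without arrays 3, 4 and 10, when 1 rose and 0 fell. Leaving out 1 array gave medians from 0.017 without array 5 to 0.11 without array 9; 3 rose without array 9, 1 rose without array 1, 2, 3 or 6, and 0 fell without array 2, 7 or 11. Slc50a1, a sugar transporter, was above 0 on 10 of 11 arrays, from -0.18 on array 6 to 0.61 on array 4. It rose by 0.22 ± 0.05 (n = 11, adjusted p = 0.0090). Slc16a1, the lactate and ketone body transporter MCT1, ranged from -0.14 to 0.45 with a median of 0.24. It rose by 0.24 ± 0.07 (n = 9, adjusted p = 0.032), a call lost without array 1, 2, 3, 5 or 6 (adjusted p between 0.051 and 0.106).

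Slc16a7, the neuronal lactate transporter MCT2, was above 0 on 9 of 11 arrays but missed the threshold at 0.19 ± 0.07 (adjusted p = 0.065); it passed without array 9 (adjusted p = 0.035). Slc37a4, which brings glucose 6-phosphate into the endoplasmic reticulum, fell by 0.13 ± 0.04 (n = 11, adjusted p = 0.032). It was below 0 on only 6 of 11 arrays. The 5 Cy5 arrays were all below 0, from -0.56 to -0.19, whereas 5 of the 6 Cy3 arrays were above 0, and the Cy3 arrays alone gave 0.052. Without array 2, 7 or 11 the adjusted p was between 0.062 and 0.073. The glucose transporters did not pass: Slc2a3, the neuronal GLUT3, had a ratio of -0.20 ± 0.10 (adjusted p = 0.145), Slc2a8 one of -0.08, Slc2a5 one of 0.06 and the insulin-responsive Slc2a4 one of 0.30 ± 0.14 (n = 8, adjusted p = 0.133). Slc2a4 passed without array 5 (adjusted p = 0.038). The choline transporter Slc5a7, grouped here by its family number, had a ratio of -0.02.

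Of 8 tested carriers of nucleosides, nucleotide sugars and acetyl-CoA 2 rose and 0 fell, with a median of -0.053. The median was -0.027 without array 11. Without array 5, 0 rose and 1 fell, and without arrays 3, 4 and 10, 1 rose and 2 fell (Slc33a1 and Slc35g3). In the fits without array 1, 3, 4, 7, 8, 10 or 11 the number that rose was 1, and without array 10 there was also 1 that fell. By the exact sign-flip permutation test 2 rose and 1 fell, Slc33a1 (adjusted p = 0.025). Slc35a1, which brings CMP-sialic acid into the Golgi, rose by 0.21 ± 0.06 (n = 10, adjusted p = 0.024). Its values ran from -0.086 to 0.56, and the call was lost without array 5 or 11 (adjusted p = 0.058 and 0.080). Slc29a1, the equilibrative nucleoside transporter ENT1, was above 0 on all 11 arrays, though close to it on several, from 0.0036 to 0.38. It rose by 0.13 ± 0.04 (adjusted p = 0.035), and without array 1, 3, 4, 5, 7, 8 or 10 the adjusted p was between 0.052 and 0.079. The other 6 members had ratios between -0.15 and 0.04. The lowest was that of Slc35b1, a carrier of the endoplasmic reticulum, which passed without array 5 or 10 (adjusted p = 0.042 and 0.041).

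None of the 7 tested metal carriers passed with limma. Their ratios lay between -0.10 and 0.15, with a median of 0.031. That median was 0.017, 0.013, 0.011, 0.0086 and 0.016 without arrays 1, 3, 5, 7 and 10 in turn, and -0.029 on the Cy3 arrays alone. In the fit to all arrays 0 of 7 had an unadjusted limma p under 0.05, beside 38 of the 77 tested carriers and 1957 of all 4811 genes tested. By the exact sign-flip permutation test 0 passed as well. The 5 zinc exporters measured were Slc30a4 (-0.10), Slc30a9 (-0.01), Slc30a5 (0.01), Slc30a1 (0.05) and Slc30a7 (0.15). Slc30a7 had an adjusted p of 0.167, and 0.047 without array 8. The iron transporters Slc40a1, ferroportin, and Slc11a2, which imports ferrous iron, had ratios of 0.03 ± 0.07 and 0.07 ± 0.05. The standard errors of the 7 lay between 0.04 and 0.08.

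**Figure D4:**
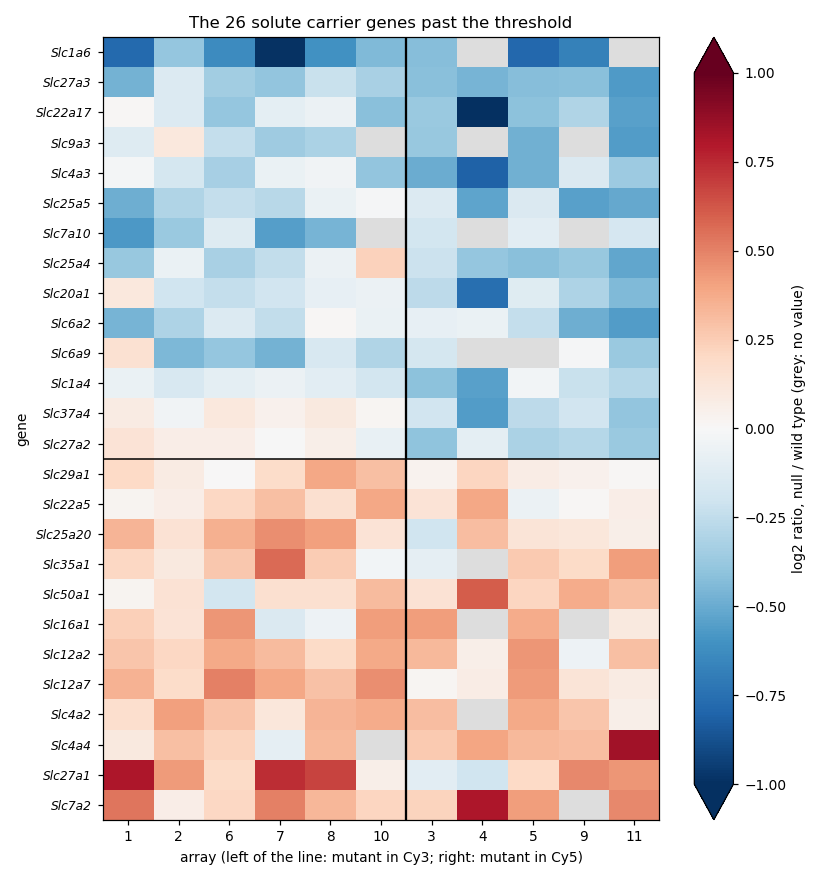
Log2 ratio of null over wild type of the 26 called solute carriers (rows, ordered by mean ratio) on the 11 arrays (columns; left of the vertical line the mutant in Cy3, right of it in Cy5), from blue at -1 to red at 1, with grey for no value. Slc1a6, Slc27a3, Slc4a3, Slc25a5, Slc7a10 and Slc1a4 are blue on every measured array, while Slc37a4 and Slc27a2 are blue mainly on the Cy5 arrays.

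Over the 26 called carriers, no sign changed when any 1 array was left out, and 19 kept their call in all 11 such fits. The 7 that lost it were Slc6a9, Slc37a4, Slc27a2, Slc29a1, Slc22a5, Slc35a1 and Slc16a1, each given above. The dye term of the model had an adjusted p under 0.05 for 0 of 77 carriers and 0 of 4811 genes. Of Slc37a4 and Slc27a2 it was -0.19 and -0.17, with an adjusted p of 0.062 each. Without arrays 1 and 6, whose wild-type age is doubtful, 8 carriers rose and 12 fell, and 6 of the 26 lost their call: Slc37a4, Slc27a2, Slc22a5, Slc25a20, Slc35a1 and Slc16a1. That left 1 higher and 0 lower in the sugar and monocarboxylate group and 0 and 2 in the mitochondrial group. The nucleoside and nucleotide sugar group had 1 and 0, and the organic ion, vitamin, choline and fatty acid group 1 and 2. By the exact sign-flip permutation test 6 lost it, namely Slc9a3, Slc6a9, Slc37a4, Slc27a2, Slc16a1 and Slc27a1. Without arrays 3, 4 and 10, 10 carriers rose and 16 fell, and 21 of the 26 kept their call. On the Cy3 arrays alone 13 of the 26 kept it and on the Cy5 arrays alone 9, with fewer arrays in each fit. Slc20a1, Slc6a2, Slc1a4, Slc50a1, Slc35a1, Slc16a1, Slc37a4 and Slc27a2 passed in neither. The Cy3 arrays alone also lost Slc22a17, Slc9a3, Slc4a3, Slc25a4 and Slc4a4. The Cy5 arrays alone also lost Slc7a10, Slc6a9, Slc29a1, Slc22a5, Slc25a20, Slc12a2, Slc12a7, Slc4a2 and Slc27a1. Slc1a6, Slc27a3, Slc25a5 and Slc7a2 kept theirs under every alternative that tested them, apart from turning the sign of the Cy5 arrays.

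Other transporter classes give a setting for these counts, beside the 28.9% of all genes tested that were called, 14.5% higher and 14.4% lower. Of 8 tested subunits of the vacuolar proton pump, which energises the loading of vesicles, 4 fell and 0 rose, with a median of -0.19, and 8 had a negative ratio. Of 3 beta subunits of the sodium-potassium pump, whose gradient drives many carriers, 2 fell and 0 rose, and no alpha subunit was tested. Atp1b1 fell by 0.48 ± 0.05 (limma adjusted p = 8.1e-06) and Atp1b3 by 0.19 ± 0.05, while Atp1b2 did not pass. Among 3 calcium pumps 2 fell, and among 4 organic anion transporters named Slco 2 fell, while 0 of 2 aquaporins passed. ABC transporters had 6 higher and 4 lower of 17 (58.8% called). These lists were counted and not tested against the carriers.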

How the data were processed

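Total RNA of embryonic neocortex was compared on 11 two-colour arrays. The authors deposited 1 log2 ratio per probe and array; log base 2 is assumed, and the sources used here do not give the background correction, normalization or direction. Column medians lay between -0.045 and 0.044, 17.3% of cells were empty, and signal over background is unknown. Symbols came from the platform's annotation, updated through Entrez identifiers to RefSeq (GRCm38.p6) for 6250 of 6269 probes with 1 symbol. The mutated gene is not reported here.

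Probes measured on 8 or more arrays, 3 or more in either dye orientation, were averaged per gene (4979 probes, 4811 genes). A mean and a dye term were estimated by limma 3.58.1 (R 4.3.3). The mean was tested against 0, two-sided, with Benjamini-Hochberg adjustment over all genes at 0.05; errors are the model's standard errors. The fit was tested on simulated data. Named genes are the 12 lowest and 12 highest called carriers with the same sign on at least 80% of arrays, the 3 of smallest p in each group, and genes whose probes disagree, and members of families with 3 or more tested; others were chosen after their values were seen, as were the promoters shown. Groups follow family numbers. Members, groups and lists were chosen with earlier results of these data known. Alternatives changed the dye term, the arrays used, centring, scale, weights, filter, variance, probe choice, threshold, sign of the Cy5 arrays and test. Samples lack a stated origin from separate litters, so p-values measure the spread between these embryos.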

Additional observations from a re-analysis of the deposited data

How the results depend on the processing

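The main counts were 12 solute carriers higher and 14 lower, with a median log2 ratio of -0.018. Using the 6 Cy3 arrays alone, 7 were lower; the 5 Cy5 arrays alone gave 3 higher and 8 lower, with fewer arrays in each fit. With values on all 11 arrays, which leaves 52 carriers, 7 were higher and the median was -0.057. At an adjusted p of 0.01, 6 were higher. Leaving out 1 array gave 9 to 13 higher, 11 to 16 lower and medians from -0.034 to -0.012. Median centring, scaling, the robust prior, the looser filter and the choice of probe kept all 26 calls. The exact sign-flip permutation test kept 20. Without the dye term 2 calls were lost, Slc37a4 and Slc27a2 (limma adjusted p = 0.207 and 0.190). Array weights and the ordinary variance each lost 2. On the Cy3 arrays alone Slc37a4 and Slc27a2 turned positive, at 0.052 and 0.041; the cause was not tested. Turning the sign of the Cy5 arrays makes the mean of the model its dye term with the sign reversed. It left 0 higher and 0 lower by limma and a median of 0.013. This repeats the result for the dye term and does not test the calls. The called carriers whose ratios changed sign were Slc27a3 (0.071), Slc22a17 (0.18), Slc9a3 (0.14), Slc4a3 (0.14), Slc25a5 (0.071), Slc25a4 (0.12), Slc20a1 (0.13), Slc6a2 (0.042), Slc1a4 (0.093), Slc37a4 (0.19), Slc27a2 (0.17), Slc50a1 (-0.11), Slc16a1 (-0.061), Slc4a4 (-0.13) and Slc7a2 (-0.088). Signal over background is unknown, so dim probes could not be set aside; precision rests on 11 arrays at most.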

Other observations

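A further 33 solute carrier genes were not tested. Of these, 5 had no value on any array, 22 had values on 1 to 4 arrays and 6 on 5 to 7. They include carriers that are well known in brain, so the counts above do not cover them. Slc2a1, the glucose transporter of the blood-brain barrier, had 4 values between -0.26 and 0.40. Slc1a2, the main astrocyte glutamate transporter, had 3 values between -0.32 and 0.81, and the arginine carrier Slc7a1 had 4, between 0.014 and 0.80. Slc37a2, a sugar phosphate exchanger of macrophages, was above 0 on each of the 4 arrays that measured it, from 0.16 to 4.09. The serotonin transporter Slc6a4 had 4 values between -0.39 and 0.25, the dopamine transporter Slc6a3 a single one of -0.064, and the vesicular zinc transporter Slc30a3 had 3 between -0.32 and 0.67. Slc35f4 had 7 values between -0.64 and 0.095.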
